A study of Mus musculus with 24 samples.

Results

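Of the 55681 distinct 60-base targets on the array, 16181 carried the coordinates of a genomic interval and a strand letter (F or R) in place of a gene name, and the file's description of these spots begins with lincRNA, for long intergenic noncoding RNA. The targets described here are the 4847 of those 16181 (30.0%) that were well above background in at least 1 of the 8 groups, on each of its 3 arrays, against 57.5% of the other 39500 targets. They came from 2502 of the 4607 intervals, each interval being described in the files as the span of such a transcript on the mm9 build of the mouse genome. Intervals of one strand within 50 kb of each other formed 1789 loci, and targets of one locus were not treated as independent.

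The arrays measured total RNA of cardiomyocytes isolated from mouse hearts on a Langendorff apparatus, with 3 arrays in each of 8 groups. The groups crossed wild type with a cardiac specific deletion of Top2b, doxorubicin (25 mg/kg) with PBS, both given intraperitoneally, and 16 h with 72 h after the injection. The mice of every group had a 129SvEv/C57BL/6 background and were labelled male and 6 weeks old. The sources used here do not name the Cre line behind the deletion. Nothing in the labels states that the arrays of a group came from different animals, and the p-values cover only the spread from array to array, which may be technical. In bulk RNA, fewer cells of a type and less RNA per cell cannot be told apart.

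Long intergenic noncoding RNAs are transcripts without a known protein product that lie between protein-coding genes. Many are capped, spliced and polyadenylated like messenger RNAs, most are weakly expressed, and some act on the chromatin of nearby genes. Topoisomerase II beta, the product of Top2b, is the type II topoisomerase of cells that no longer divide. Doxorubicin is an anthracycline that traps type II topoisomerases on cut DNA, and it is known for its toxicity to the heart.

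Some labels and measurements of these arrays did not match. The genotype field of 4 arrays at 16 h (replicate 3 of both PBS groups and replicate 1 of both doxorubicin groups) named the other genotype than their titles. Groups follow the titles, under which Top2b had a log2 level of 4.20 ± 0.16 in wild type and 2.99 ± 0.28 in Top2b-deleted hearts at 16 h (SD, n = 6 each; exact permutation test, two-sided, p = 0.00217), and 3.43 ± 0.17 against 2.51 ± 0.34 at 72 h. Every level here is log2 relative to the 75th percentile of its array. Although all mice were labelled male, the Xist targets were above background on 17 arrays and the Y-linked gene Ddx3y on the other 7. At 16 h these 7 included 3 of 3 wild-type PBS arrays, 1 of 3 wild-type doxorubicin arrays, 0 of 3 Top2b-deleted PBS arrays and 1 of 3 Top2b-deleted doxorubicin arrays, so that in the PBS groups at 16 h genotype and this division cannot be told apart. At 72 h they were 1 array of each PBS group and no doxorubicin array. At 16 h, slide 1 held all wild-type arrays and Top2b-deleted PBS replicates 1 and 2, and slide 2 held the other 4 Top2b-deleted arrays.

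The targets on which the results turn are shown first, each in the sense of its interval, 5′ to 3′ on mm9, with the strand letter. Those below responded to doxorubicin in wild type and show which stretch of each interval was measured. The capitals mark AATAAA, the polyadenylation hexamer. It stood near the 3′ end of the last of them.
Interval near G3bp2, chr5:92558850-92558909 (F): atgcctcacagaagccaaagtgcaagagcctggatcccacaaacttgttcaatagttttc
Interval around the Kifc1 target, chr17:34018374-34018433 (R): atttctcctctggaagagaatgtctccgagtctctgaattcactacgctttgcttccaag
Interval around the AI607873 target, chr1:175653663-175653722 (R): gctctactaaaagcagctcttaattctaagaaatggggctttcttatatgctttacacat
Interval near Zbtb38, chr9:96652929-96652988 (R): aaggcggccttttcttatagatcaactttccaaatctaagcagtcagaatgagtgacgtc
Interval near Gsta1, chr9:78116774-78116833 (F): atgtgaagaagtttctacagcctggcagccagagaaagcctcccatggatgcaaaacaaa
Interval near Actc1, chr2:113882975-113883034 (F): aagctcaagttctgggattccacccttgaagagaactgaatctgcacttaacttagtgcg
Interval near Ccdc6, chr10:69682391-69682450 (F): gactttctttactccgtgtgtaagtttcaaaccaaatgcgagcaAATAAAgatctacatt

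The following pairs belong to overlapping intervals that differed between the genotypes. The capitals mark the bases that the 2 targets of a pair share, 53 in the first pair and 49 in the second, so the targets of a pair measure nearly the same stretch.
First target far from Zfp938, chr10:81863549-81863608 (F): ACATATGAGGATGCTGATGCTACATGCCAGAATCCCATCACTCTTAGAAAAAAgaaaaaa
Second target far from Zfp938, chr10:81863542-81863601 (F): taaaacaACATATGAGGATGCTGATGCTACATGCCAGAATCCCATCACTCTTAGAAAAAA
First target around 4933436C20Rik, chr8:94850247-94850306 (R): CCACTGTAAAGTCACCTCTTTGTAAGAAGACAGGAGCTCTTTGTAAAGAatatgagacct
Second target around 4933436C20Rik, chr8:94850258-94850317 (R): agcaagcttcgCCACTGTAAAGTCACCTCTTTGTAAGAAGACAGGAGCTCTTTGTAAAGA

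The last set holds single targets that switched between background and a clear signal. The final target lies in the same interval as the one above it and did not switch.
Interval near Pus7, chr5:23204914-23204973 (R): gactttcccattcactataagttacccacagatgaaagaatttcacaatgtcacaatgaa
Interval near Slc13a4, chr6:35202961-35203020 (F): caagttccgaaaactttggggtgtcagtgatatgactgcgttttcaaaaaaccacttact
Interval near Bnip3l, switching target, chr14:67595657-67595716 (F): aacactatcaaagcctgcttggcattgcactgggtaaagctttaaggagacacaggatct
Interval near Bnip3l, steady target, chr14:67588801-67588860 (F): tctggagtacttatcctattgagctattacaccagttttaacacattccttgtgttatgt

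The hexamer AATAAA was found in 194 of the 4847 members (4%), in 3.92% of all 16181 interval targets and in 12.6% of the other 39500 targets of the same length. Its reverse complement TTTATT was found in 2.89%, 3.02% and 4.03% of the same sets. Interval targets had a median GC content of 45%, against 41.7% for the other targets. Members were split almost evenly by strand, 2403 on F and 2444 on R, and the median interval was 12076 bases long (67 to 533972). The nearest target of a named gene lay a median of 15117 bases from a member's interval, and 2060 members had one within 10 kb of it. All distances to genes here run from the nearer end of the interval, not from the measured target within it. For 413 members the interval held a same-strand target of a named gene, among them the protein-coding gene Kifc1. For those intervals the name alone does not show that the RNA was noncoding. Coding sequence was not searched for in the interval targets, so for the others the name does not show it either.

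Detection was broad. Of the members, 2649 were above background on all 24 arrays, and 513 passed the rule through 1 group alone, 186 of these through Top2b-deleted doxorubicin at 72 h and 111 through wild-type doxorubicin at 72 h. Just outside the rule, 963 interval targets were above background on 2 of 3 arrays of some group, and 7911 were above background on no array. Between 20.9% and 26.5% of interval targets were above background per array at 16 h, and between 25.8% and 34.5% at 72 h. In each of 6 comparisons between groups the exact p was 0.3 or more. The largest difference, Top2b-deleted against wild type in PBS at 72 h, was 31.0% ± 3.32 against 27.5% ± 1.21 (SD, n = 3; exact permutation test, two-sided, p = 0.3, where 0.1 is the smallest p this design allows). A target entered the test at a time point if all 3 arrays of at least 1 of that time's groups were above background, which kept 3908 members at 16 h and 4705 at 72 h.

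Doxorubicin changed many interval RNAs in wild-type cardiomyocytes at 16 h. The limma fit called 681 of 3908 members (adjusted p under 0.05), 328 higher by a median of 1.31 and 353 lower, with a median of -0.92, on the log2 scale. That is 17.4% of the members tested, against 27.6% of all targets on the array (13.3% higher and 14.2% lower), so the share of interval RNAs was below the background. The median SE was 0.227 for the members and 0.193 for the other targets, and the part of this in the lower share was not tested. The calls came from 384 intervals in 336 loci. The count was 505 without the 4 arrays whose genotype fields differ, and 0 when groups followed that field.

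The strongest rise was that of the interval chr5:92556322-92558910 (F), whose nearest gene target, 71849 bases away on the other strand, belongs to G3bp2, a protein of stress granules. Its level was -2.78, -1.93 and -2.35 on the wild-type PBS arrays and 1.34, 2.46 and 1.98 on the wild-type doxorubicin arrays. On Top2b-deleted arrays it was -2.32, -1.64 and -2.23 after PBS and -1.34, -1.51 and -2.47 after doxorubicin. Only the wild-type doxorubicin arrays stood apart. The rise in wild type was 4.28 ± 0.37 on the log2 scale (SE; limma, adjusted p = 7.3e-05), and all 3 targets of the interval were called higher. Of these, the target at chr5:92558679-92558738 entered the test only through the wild-type doxorubicin group, in which it was high. G3bp2 itself fell by 1.10 ± 0.12 (adjusted p = 0.00019).

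The interval chr17:34018371-34019394 (R) holds the array's target for Kifc1, a kinesin of the mitotic spindle, on the same strand. It stood at -2.78, -2.84 and -2.78 after PBS and at 0.97, 1.03 and 0.21 after doxorubicin in wild type, and at -2.84 to -2.22 on all Top2b-deleted arrays of 16 h. The rise was 3.53 ± 0.20 (adjusted p = 1.1e-05), next to 3.97 ± 0.22 for Kifc1 (adjusted p = 1.1e-05). Both targets may have measured RNA of Kifc1, which was not tested, so the interval is not shown to hold a separate RNA. A further target of this interval was not well above background on any wild-type PBS array and rose at least 6.90-fold. It entered the test only through the wild-type doxorubicin group, in which it was high. A bound of this kind sets the bright group against the lowest signal among targets above background on each dim array, or the target's own signal where that is higher.

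Intervals at 2 other places rose together with a same-strand gene nearby. The interval chr1:175653557-175671940 (R), which holds the target for AI607873, was at -2.66, -2.85 and -3.19 after PBS and at 0.26, 0.88 and -0.64 after doxorubicin. It rose by 3.07 ± 0.44 (adjusted p = 0.00087), and AI607873 by 3.71 ± 0.70 (adjusted p = 0.0036). The interval chr9:96632664-96653249 (R) lies 45775 bases from the target for Zbtb38, a zinc finger protein that binds methylated DNA. It was at -2.56, -3.01 and -2.59 after PBS and at 0.47, -0.84 and -0.34 after doxorubicin, a rise of 2.48 ± 0.32 (adjusted p = 0.00051), against 0.70 ± 0.11 for Zbtb38 (adjusted p = 0.0018). In both intervals all 3 targets were called higher.

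Single arrays carried part of some other rises. The interval chr4:149445201-149445902 (F), 33817 bases from the target for the receptor gene Gpr157, was at -3.14, -2.42 and -2.93 after PBS and at 2.57, 1.89 and -0.68 after doxorubicin (4.09 ± 0.74, adjusted p = 0.003). The interval chr9:96635508-96654148 (R), next to the one near Zbtb38, was at 1.82 on doxorubicin replicate 1 but at -0.95 and -1.63 on replicates 2 and 3 (2.57 ± 0.69, adjusted p = 0.019). Its call was lost without wild-type PBS replicate 1 or replicate 2. The rise of chr6:31115515-31168433 (R), of 2.80 ± 0.67, was lost without the 4 arrays whose genotype fields differ.

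Among targets above background on all 6 wild-type arrays, the strongest fall was that of the interval chr2:113880070-113887230 (F), 6947 bases from the target for Actc1, the cardiac alpha-actin gene, on the other strand. It was among the brighter interval RNAs, at 5.07, 5.21 and 5.57 on the wild-type PBS arrays. After doxorubicin it was at 2.53, 1.90 and 2.75, while the 6 Top2b-deleted arrays lay between 4.49 and 4.95. The groups of wild type did not overlap. The fall was -2.89 ± 0.21 (adjusted p = 2.8e-05), with all 3 targets called lower, and Actc1 had a difference of -0.28 ± 0.14 (adjusted p = 0.18).

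Targets that dropped to background gave bounds. One of chr10:62267317-62269871 (R), 60043 bases from the target for the cell cycle gene Ccar1, was at -1.46, -1.50 and -1.70 after PBS and at -5.35, -3.92 and -3.92 after doxorubicin, at least 3.98-fold lower (adjusted p = 0.0019). One of chr5:22056218-22206995 (F) was at least 3.24-fold lower (adjusted p = 0.00011). In both intervals all 3 targets were called lower. Among targets above background throughout, other falls were smaller. The interval chr2:22753100-22780375 (R), 15047 bases from the target for Pdss1, which makes the side chain of ubiquinone, was at -0.93, -0.92 and -0.51 after PBS and at -2.91, -2.68 and -2.82 after doxorubicin (-2.01 ± 0.17, adjusted p = 6.4e-05). Pdss1 fell as well, by 1.23 ± 0.23 (adjusted p = 0.0034). At chr10:69669025-69686275 (F), 13716 bases from the target for the coiled-coil gene Ccdc6, all 5 targets fell, by 1.17 to 1.69, and Ccdc6 had a difference of -0.21 ± 0.12 (adjusted p = 0.21). The interval chr16:59556175-59603176 (R), near the small GTPase gene Arl6, fell by 1.61 ± 0.17 (adjusted p = 0.00016), and Arl6 had a difference of 0.08 ± 0.20 (adjusted p = 0.81).

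**Figure D1:**
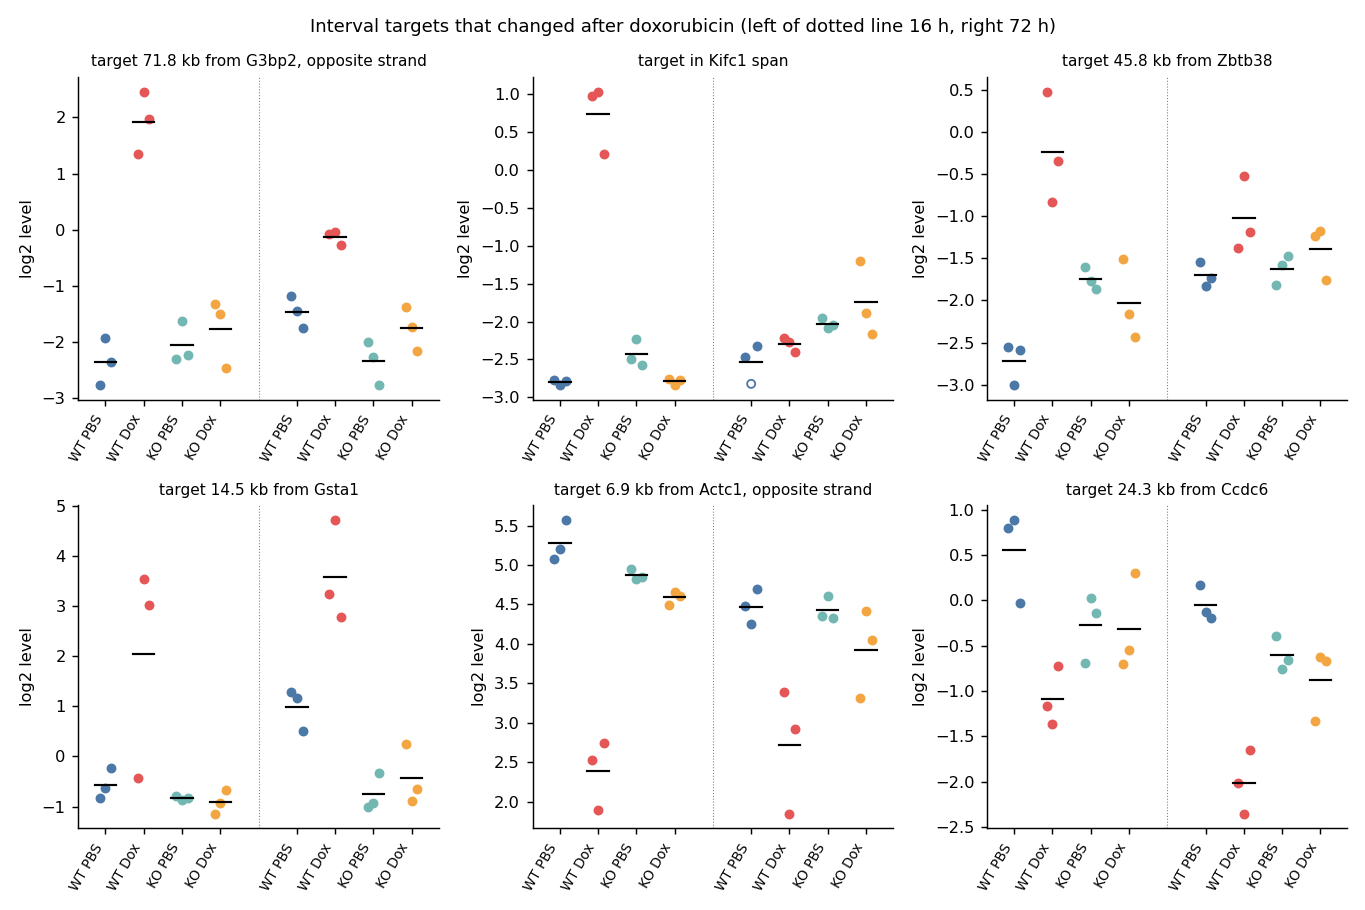
Levels (log2 relative to the array's 75th percentile) of 6 interval targets on all 24 arrays, with 1 panel per target, 1 column per group (KO for Top2b-deleted, Dox for doxorubicin; 16 h left of the dotted line, 72 h right), filled points above background, open points not above it, and bars at group means. Wild-type doxorubicin arrays at 16 h stand above or below the other groups of that time in the panels of the G3bp2, Kifc1, Zbtb38, Actc1 and Ccdc6 neighbours, and 1 of them stays at the PBS level in the Gsta1 panel.

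Top2b-deleted cardiomyocytes showed 1 called interval target after doxorubicin at 16 h, and it was the only call over all 25343 targets tested (0.00395%). Without adjustment, 195 members had a p under 0.05. The target lies in chr14:67585234-67596823 (F), whose nearest gene target, 7254 bases away on the other strand, belongs to Bnip3l, a receptor for the removal of mitochondria. It was at -1.75, -1.73 and -2.16 on the Top2b-deleted doxorubicin arrays of 16 h and between -6.27 and -5.25 on the other 21 arrays, where it was not above background. The rise was at least 3.91-fold (adjusted p = 2.9e-05), of a target that entered the test through the group in which it was high. Of the other 7 targets of this interval, 3 stood between 3.05 and 6.19 on every array, 1 between -1.65 and 0.00, and 3 were never above background. These 3 arrays shared slide 2 with 1 Top2b-deleted PBS array, at -6.24, and the call was lost within that slide.

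The doxorubicin response itself was compared between the genotypes by the interaction term of the fit, the Top2b-deleted response minus the wild-type response. At 16 h it was called for 260 of 3908 members, 140 higher and 120 lower, next to 11.2% of all targets (6.16% higher, 5.05% lower). Of the 260, the wild-type response was itself called in 249 and the Top2b-deleted response in 1. These counts describe targets chosen by that same difference.

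**Figure D2:**
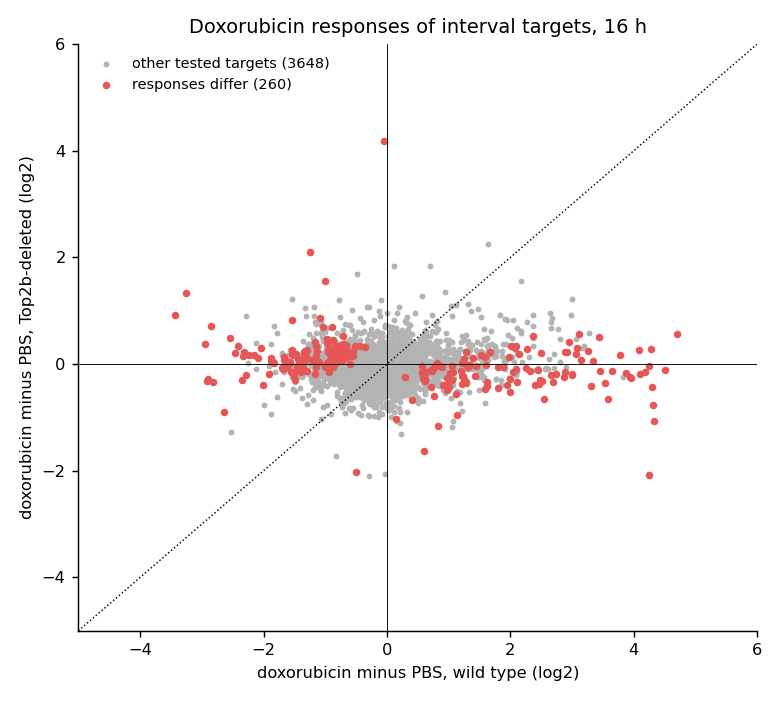
Doxorubicin minus PBS at 16 h on the log2 scale for the 3908 tested members, wild type on the horizontal axis and Top2b-deleted on the vertical axis, with the 260 targets whose responses differed in red and equal responses on the dotted line. The red points spread widely along the horizontal axis and most stay near 0 on the vertical axis, while the target near Bnip3l stands high on it.

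Among targets above background throughout, the intervals named above led. For the interval near G3bp2 the responses differed by -3.99 ± 0.52 (limma, adjusted p = 0.0021), and for the interval around Kifc1 by -3.89 ± 0.28 (adjusted p = 0.00019). The interval near Actc1 differed the other way, by 2.60 ± 0.29 (adjusted p = 0.0013). The interval chr13:94180737-94182912 (F), 5863 bases from the target for Homer1, a scaffold protein of synapses and muscle, was at -0.52, -0.56 and -0.20 after PBS and at -2.03, -2.13 and -1.73 after doxorubicin in wild type. On Top2b-deleted arrays it was at -0.48, -0.29 and -0.30 after PBS and at -0.35, 0.00 and 0.07 after doxorubicin. Its responses differed by 1.80 ± 0.23 (adjusted p = 0.0019), and those of Homer1 by 1.65 ± 0.31 (adjusted p = 0.0095).

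This count moved by over 1.5 times when 1 array was left out, to 151 and 134 without Top2b-deleted doxorubicin replicates 2 and 3, to 141, 132 and 172 without Top2b-deleted PBS replicates 1, 2 and 3, to 163 without wild-type PBS replicate 2, and to 645 without wild-type doxorubicin replicate 3. With slide as a block it was 54.

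Without doxorubicin, Top2b-deleted cardiomyocytes also differed from wild type. At 16 h, 379 of 3908 members were called, 207 higher and 172 lower, next to 11.7% of all targets (6.47% higher, 5.27% lower). With normexp background correction the calls at 16 h split into 134 higher and 216 lower, and with the percentile taken over targets above background on all arrays into 191 and 229, so which direction had more calls depended on the scaling. At 72 h, 88 of 4705 were called, 46 higher and 42 lower, next to 2.25% of all targets (1.14% higher, 1.11% lower). Of 3766 members tested at both times, 359 were called at 16 h and 72 at 72 h, and 51 at both, all 51 in the same direction. The 51 are 14.2% of the first list and 70.8% of the second, and lie in 32 intervals of 24 loci. The same overlap was not counted over all targets, so it is not shown to be particular to interval RNAs. No arrays are shared between the times.

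The clearest case was chr5:23195569-23218551 (R), 27985 bases from the target for Pus7, a pseudouridine synthase. One of its targets was at -5.37, -5.72 and -4.63 on wild-type PBS arrays at 16 h, none above background, and at 0.05, -0.04 and 0.04 on Top2b-deleted PBS arrays. At 72 h it was at -3.89, -5.34 and -4.55 in wild type and at -0.14, -0.12 and -0.71 in Top2b-deleted. The groups were far apart at both times. It was at least 11.6-fold higher in Top2b-deleted at 16 h (limma, adjusted p = 4.8e-06) and at least 9.34-fold higher at 72 h (adjusted p = 0.00056). After doxorubicin the wild-type arrays of 16 h were at -1.13, -0.15 and -0.94, and those of 72 h at -3.74, -3.76 and -5.10. The wild-type doxorubicin arrays of 16 h thus lay near the Top2b-deleted level, and those of 72 h did not. In this interval the wild-type rise after doxorubicin at 16 h was called for 2 of the 4 members, and the second of these was at -4.50, 0.83 and 0.12 on the doxorubicin arrays, with the first of those not above background. Along the interval, 4 of 7 targets were called higher in Top2b-deleted at both times, and the 3 at its 5′ end were not members.

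The 2 overlapping targets of chr10:81816994-81863610 and chr10:81846505-81863606 (F), whose nearest gene target, that of Zfp938, was over 100 kb away, gave nearly the same values. The first was at -1.95, -1.83 and -2.54 on wild-type PBS arrays and at 0.91, 0.94 and 0.77 on Top2b-deleted PBS arrays at 16 h. The differences were 2.98 ± 0.31 (adjusted p = 0.00034) and 3.26 ± 0.28 (adjusted p = 8.7e-05). At 72 h they were 2.37 ± 0.36 (adjusted p = 0.0064) and 2.21 ± 0.27 (adjusted p = 0.0017). Near Tln2, the gene of talin 2, which ties integrins to actin, a target of chr9:66981366-67061725 (F) was at -2.34, -2.19 and -2.73 in wild type and at -0.46, -0.38 and -0.21 in Top2b-deleted at 72 h. It was 2.07 ± 0.19 higher (adjusted p = 0.00031), and Tln2 had a difference of -0.43 ± 0.20 (adjusted p = 0.4). A target of an overlapping same-strand interval was instead lower in Top2b-deleted after PBS. Its difference was -2.63 ± 0.49 (limma, adjusted p = 0.0077) at 16 h. At 72 h its difference was -2.40 ± 0.44 (adjusted p = 0.017), so the direction near Tln2 depended on the target.

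Lower in Top2b-deleted were the overlapping intervals chr8:94849929-94870274 and chr8:94841965-94881130 (R), which hold the target for 4933436C20Rik. The first was at -0.12, 0.30 and -0.94 on wild-type PBS arrays and at -3.20, -3.05 and -3.03 on Top2b-deleted PBS arrays at 16 h. It differed by -2.84 ± 0.32 (adjusted p = 0.00054) at 16 h and by -2.54 ± 0.45 (adjusted p = 0.016) at 72 h, and 4933436C20Rik itself by -2.29 ± 0.30 and -2.45 ± 0.40. The interval chr1:92177032-92180487 (F), 65170 bases from the target for the chemokine receptor gene Cxcr7, was at -1.24, -0.95 and -0.66 in wild type and at -3.22, -3.38 and -2.79 in Top2b-deleted after PBS at 16 h. On wild-type doxorubicin arrays it was at -2.63, -2.80 and -3.06 at 16 h and at -0.73, -0.98 and -0.58 at 72 h. Here too the wild-type doxorubicin arrays of 16 h, and not those of 72 h, lay near the Top2b-deleted level.

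The gene target nearest to the interval chr6:35201798-35217831 (F), 140 bases away on the other strand, belongs to the sulfate transporter gene Slc13a4. A target of this interval had the largest bounded difference. It was at 1.28, 1.78 and 1.56 on wild-type PBS arrays and at -6.16, -5.91 and -6.23 on Top2b-deleted PBS arrays at 16 h, at least 42.0-fold lower (adjusted p = 9.7e-06). At 72 h the Top2b-deleted PBS arrays were at -6.30, 0.59 and -5.71, and the doxorubicin arrays at -0.12, -5.93 and 0.28, so arrays of one group stood on both sides. All 12 wild-type arrays were above background. The target that ends where this one begins was above background on all 24 arrays and differed by -1.77 at 16 h (adjusted p = 0.0014) and by -0.95 at 72 h (adjusted p = 0.078). Slc13a4 was 2.07 ± 0.47 higher at 16 h (adjusted p = 0.02).

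Other genotype differences were seen in 1 of several targets or on some arrays. At chr3:34643323-34682773 (F), 92491 bases from the target for the pluripotency factor Sox2, a target was at -0.93, -0.66 and -0.94 in wild type and at 2.39, 2.70 and 2.29 in Top2b-deleted after PBS at 16 h. It was 3.30 ± 0.43 higher (adjusted p = 0.0013), and the other tested target of that interval had a difference of -0.10. At 72 h a target of chr17:32044823-32045974 (R), near the meiosis gene Hsf2bp, was at 1.38, 1.29 and 1.34 in wild type and at -4.87, -5.82 and -4.34 in Top2b-deleted after PBS. It was at least 39.2-fold lower (adjusted p = 0.0034), and no Top2b-deleted array of either time was above background. Wild-type arrays stood on both sides at 16 h, at 1.18, -3.09 and 1.65 after PBS and at -3.95, 1.45 and 2.10 after doxorubicin.

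**Figure D3:**
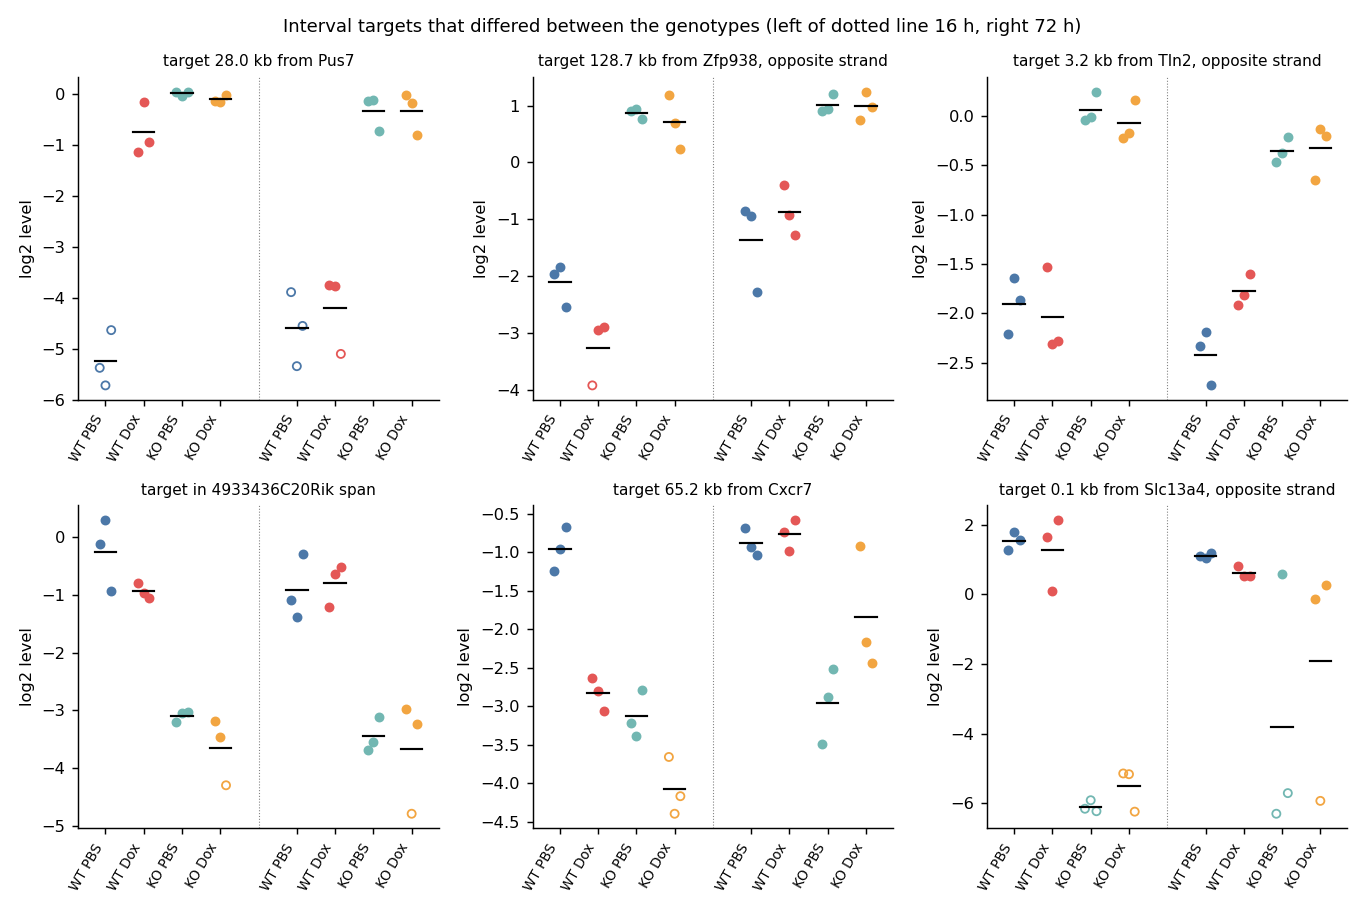
Levels (log2 relative to the array's 75th percentile) of 6 interval targets that differed between the genotypes, drawn as in the plot of doxorubicin-responsive targets. Top2b-deleted arrays lie above wild-type PBS arrays at both times in the panels of the Pus7, Zfp938 and Tln2 neighbours, and the Slc13a4 panel shows Top2b-deleted arrays of 72 h on both sides.

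**Figure D4:**
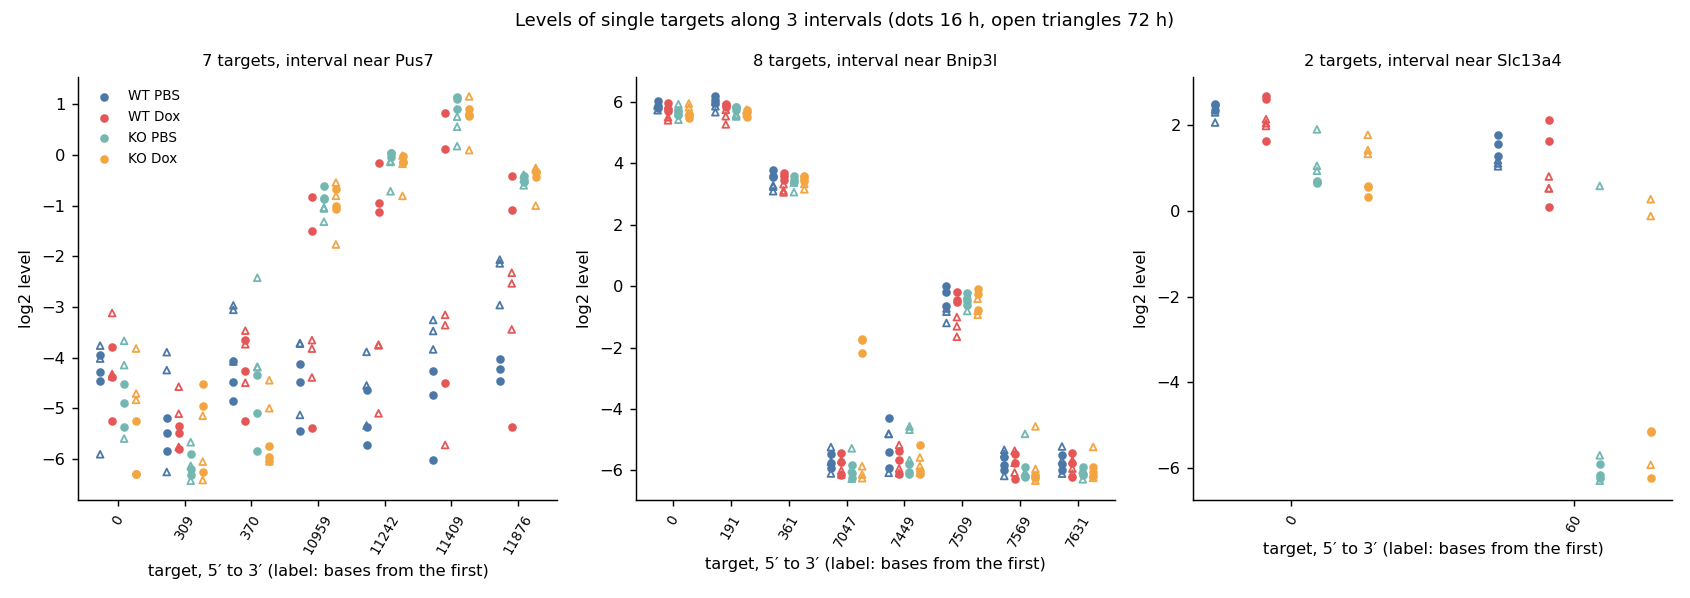
Levels of every target along 3 intervals in 5′ to 3′ order, with groups by colour, arrays of 16 h as dots and of 72 h as open triangles, and the bases from the first target under each position. In the interval near Pus7 the 4 targets at the 3′ end separate the genotypes, near Bnip3l 1 target of 8 rises on 3 arrays, and near Slc13a4 adjacent targets behave differently.

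The count of genotype calls at 16 h depended on single arrays. It was 167, 197 and 200 without Top2b-deleted PBS replicates 1, 2 and 3, was 196, 205 and 233 without wild-type PBS replicates 1, 2 and 3, and was 611 without wild-type doxorubicin replicate 1. It was 234 without the 4 arrays whose genotype fields differ, 243 with Ddx3y as a covariate and 200 with slide as a block. At 72 h it was 40 and 37 without Top2b-deleted PBS replicates 2 and 3, and 45 and 38 without wild-type PBS replicates 2 and 3.

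For doxorubicin in wild type, fewer members were called at 72 h than at 16 h. The median SE of the members was larger at 72 h, 0.278 against 0.227, and its part in the lower count was not tested. At 72 h, 65 of 4705 members were called, 34 higher and 31 lower, next to 2.21% of all targets (0.854% higher, 1.36% lower). The split depended on the scaling, at 48 higher and 16 lower with the percentile over targets above background on all arrays, 17 and 37 with normexp, and 30 and 102 from the deposited table. The first and last of these moved the median difference of all targets by 0.12 and -0.11 on the log2 scale. Of 3766 members tested at both times, 628 were called at 16 h and 50 at 72 h, and 22 at both, all 22 in the same direction. These are 3.50% of the first list and 44% of the second, in 16 intervals of 15 loci. This overlap was not counted over all targets either. In Top2b-deleted cardiomyocytes at 72 h, limma called 0 members and 0 of all targets (0%), with 126 members at an unadjusted p under 0.05. The difference between the genotypes' responses was called for 0 members and 0 of all targets (0%) at 72 h, with 266 at an unadjusted p under 0.05.

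Among targets above background on all 6 wild-type arrays, that of chr9:78104935-78116974 (F) rose most at 72 h. Its interval lies 14465 bases from the same-strand target for Gsta1, a glutathione transferase that detoxifies oxidized lipids. The interval's target was at 1.30, 1.17 and 0.51 after PBS and at 3.24, 4.71 and 2.78 after doxorubicin in wild type at 72 h. Top2b-deleted arrays of 72 h lay between -1.01 and 0.25. The wild-type rise was 2.59 ± 0.48 (limma, adjusted p = 0.033), and that of Gsta1 2.48 ± 0.50 (adjusted p = 0.04). Whether the target of this interval measured RNA of Gsta1 or of a related gene was not tested. At 16 h the wild-type doxorubicin arrays were at -0.43, 3.54 and 3.02, and the array at the PBS level was replicate 1, the 1 of the 3 with Ddx3y above background and with a differing genotype field.

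Several falls lasted from 16 h. The interval near Actc1 was at 4.48, 4.25 and 4.69 after PBS and at 3.39, 1.85 and 2.92 after doxorubicin in wild type at 72 h (-1.75 ± 0.37, adjusted p = 0.045). The interval chr10:69679644-69682458 (F), near Ccdc6, was at 0.17, -0.13 and -0.20 after PBS and at -2.02, -2.36 and -1.66 after doxorubicin (-1.96 ± 0.24, adjusted p = 0.012), after 0.80, 0.89 and -0.03 against -1.17, -1.37 and -0.72 at 16 h (-1.64 ± 0.33, adjusted p = 0.0049). The interval near G3bp2 was still higher, at -0.09, -0.04 and -0.27 against -1.18, -1.46 and -1.75 (1.33 ± 0.25, adjusted p = 0.033). Of the 24 targets named by rule for this comparison, 0 kept their call whichever array was left out.

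The count of 65 moved widely with single arrays. It was 161, 0 and 13 without wild-type doxorubicin replicates 2, 3 and 4, and 2, 0 and 192 without wild-type PBS replicates 2, 3 and 4. It was 102, 42 and 35 without Top2b-deleted doxorubicin replicates 2, 3 and 4, and 14, 7 and 34 without Top2b-deleted PBS replicates 2, 3 and 4. It was 356 with slide as a block and 5 with Ddx3y as a covariate.

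Targets of one interval mostly moved in the same direction. Among members tested for doxorubicin in wild type at 16 h, the median SD of the log2 difference within an interval was 0.192, against 0.757 over all of them. These are unlike measures, a median over intervals and a single SD. Of 261 intervals with several tested targets and a call, all targets had the same sign in 196. In 138 of the 261, 2 or more targets were called, and in 89 all were called one way. Of all 384 called intervals, 3 held calls both ways. Across all tested spans, the differences on opposite strands of a span were only weakly related. Over 358 spans with members tested on both strands the differences had a Pearson r of 0.079, given as a description since the strands share arrays. Of 105 such spans with a call, 13 had calls on both strands, 11 in the same direction and 2 in opposite directions.

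The nearest named gene moved with an interval mainly where its target lay inside the interval on the same strand. There the doxorubicin differences of interval and gene in wild type at 16 h had a Pearson r of 0.744 over 117 intervals. Where an interval was called, 15 of 31 genes were called too, all 15 in the same direction, next to 27.6% of all targets called. Up to 10 kb away it was 22 of 57 genes on the same strand (19 in the same direction) and 13 of 33 on the opposite strand (9). From 10 to 100 kb away it was 55 of 142 (30 in the same direction). For genes up to 10 kb away r was 0.231 on the same strand (289 intervals) and -0.060 on the opposite strand (191 intervals), and for genes 10 to 100 kb away it was 0.077 (796 intervals). For the genotype in PBS at 16 h, r was 0.7 for genes inside the interval on the same strand. These correlations run across intervals measured on the same arrays and carry no p. Whether a gene target inside an interval measured the same RNA as the interval's own targets was not tested.

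**Figure D5:**
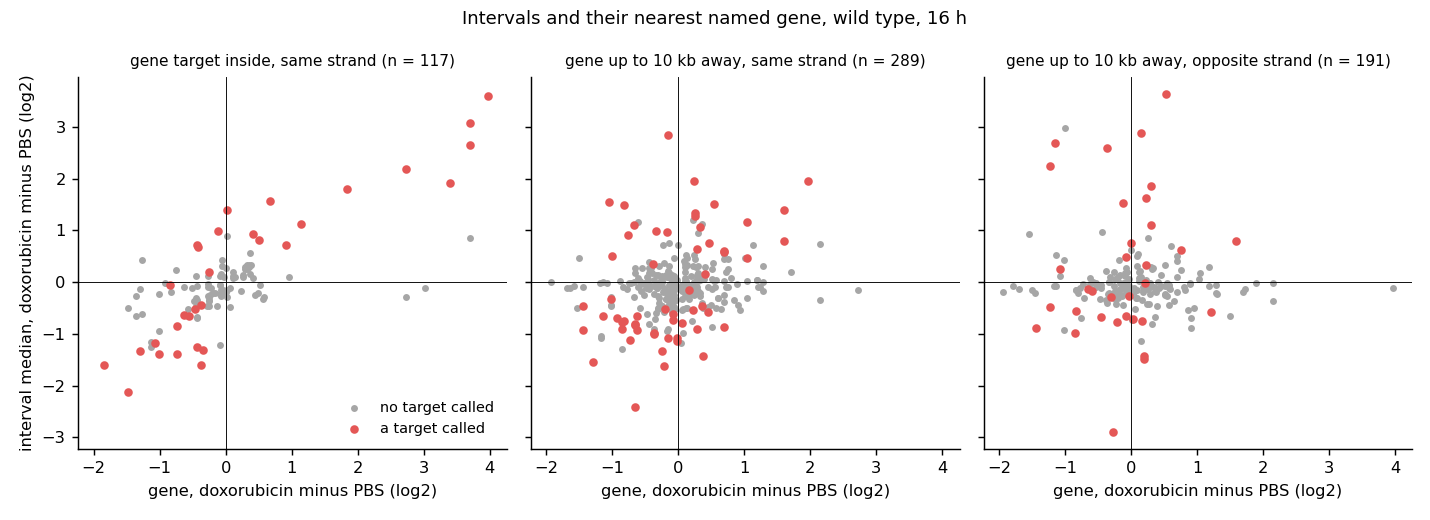
Doxorubicin minus PBS in wild type at 16 h on the log2 scale, the nearest named gene on the horizontal axis and the median of the interval's targets on the vertical axis, with red points for intervals with a call. Points follow the diagonal where the gene's target lies inside the interval on the same strand (117 intervals) and scatter without a visible trend for genes up to 10 kb away on the opposite strand (191 intervals).

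Noncoding RNAs with names gave a further view of the same arrays. Of 45 listed, 26 were tested at 16 h, and doxorubicin in wild type called 10 higher and 3 lower, with a median of 0.469, next to 13.3% higher and 14.2% lower and a median of -0.030 over all targets. The rises included hosts of small nucleolar RNAs, with Snhg12 at 2.10 ± 0.12 (limma, adjusted p = 1.2e-05), Gas5 at 1.95 ± 0.18 (adjusted p = 8.2e-05) and Snhg1 at 2.66 ± 0.25 (adjusted p = 8.6e-05). H19, an imprinted fetal transcript, fell by 3.03 ± 0.33 (adjusted p = 0.000195), and all 5 of its targets in the lincRNA set were called lower. No target of NEAT1, NEAT2 or TUG1 in that set was called in this comparison. In Top2b-deleted hearts 0 of the 26 were called after doxorubicin. Gas5 was lower in Top2b-deleted PBS hearts at both times, by -1.47 ± 0.18 (adjusted p = 0.00085) at 16 h and -1.91 ± 0.22 (adjusted p = 0.0012) at 72 h.

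Interval RNAs beside targets of p53, the factor that DNA damage activates, were few. Of 34 p53 target genes tested, 23 rose and 0 fell after doxorubicin in wild type at 16 h, next to 13.3% and 14.2% of all targets. The nearest named gene was on that list and within 100 kb for 6 members, near Cdkn1a, Fbxw7, Phlda3 and Trp53inp1. Of these 6, 0 were called in any comparison in which they were tested. Of all targets, at most 27.6% were called at 16 h and at most 2.25% at 72 h. The members near Trp53inp1 and the R-strand one near Fbxw7 were tested at 72 h only. So few members cannot show a difference from these shares. The one near Cdkn1a, which encodes the cell cycle inhibitor p21, had a wild-type doxorubicin difference of 0.00 ± 0.18 at 16 h (adjusted p = 0.995).

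Cell type markers moved in the comparisons above. All 8 cardiomyocyte markers were above background in every group. Their summed level, in multiples of the array's 75th percentile, was 7920 to 8510 on wild-type PBS arrays and 6140 to 7810 on wild-type doxorubicin arrays at 16 h. In that comparison, where 13.3% of all targets were higher and 14.2% lower, 5 of 7 smooth muscle and pericyte markers fell (summed level 79.8 to 104 against 28.5 to 35.3), as did 4 of 7 tested fibroblast markers (24.2 to 35.8 against 22 to 50.3). Of 4 tested neutrophil markers 3 rose (80.5 to 82.5 against 66.7 to 99.5), while Mmp8 and Retnlg were not above background in either group and S100a8 not after PBS. Of the other lists, 1 of 8 cardiomyocyte and 1 of 8 endothelial markers fell, and 0 of 8 macrophage, 0 of 2 tested lymphocyte and 0 of 2 tested erythroid markers passed the test, with Cd3g, Ms4a1 and Alas2 not above background. Tcf21 of the fibroblast list was not above background in either group. Between the genotypes in PBS at 16 h, 4 of 7 fibroblast markers were higher in Top2b-deleted, next to 6.47% of all targets (24.2 to 35.8 in wild type, 45.4 to 96.9 in Top2b-deleted). There 2 of 8 endothelial markers were lower, next to 5.27% of all targets. Of 7 smooth muscle and pericyte markers 1 was higher and 2 were lower, and 1 of 8 cardiomyocyte markers was higher. No tested macrophage, neutrophil, lymphocyte or erythroid marker was called. In wild type at 72 h, 3 of 5 neutrophil markers were higher after doxorubicin, next to 0.854% of all targets (104 to 247 after PBS, 128 to 230 after doxorubicin). Their part in the results on interval RNAs was not tested.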

How the data were processed

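Each of the 24 samples was 1 array of 1 colour (Cy3, 100 ng of RNA), and per the file headers the scans were read by version 10.7.3.1 of Agilent Feature Extraction. The authors deposited scanner intensity for 62976 spots per array, of which 59305 were not controls and 42.9% to 52.6% were well above background. The deposited value table holds a ratio, each processed signal over its array's median, as a match to the scanner values showed, and served as an alternative.

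The log2 of the processed signal was centred on the 75th percentile of each array (146 to 282 in signal units), outlier spots (89 to 277 per array) were left out, and spots of one target were averaged. No spot was saturated. A spot with an outlier flag was treated as missing in the fit. The number of arrays limits the precision. The arrays of each time point were fitted together (12 arrays, 4 groups) with limma 3.58.1 in R 4.3.3, over all targets that were well above background on all 3 arrays of a group of that time. Benjamini-Hochberg adjustment ran over all targets tested, at 0.05. The times were scanned on different slides, so levels were not tested between them. Exact permutation tests went through every assignment of arrays to the groups compared, in Python 3.11.15 with numpy 2.4.6. The fit was tested on simulated data.

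Targets were named by rule. Among called targets above background on every array of both groups and without overlap, these were the 10 largest per direction for doxorubicin in wild type and the 5 largest for other comparisons, with at most 2 per locus. For the difference of responses, targets had to be above background on every array of the time. Up to 3 bounded targets per direction were added, as were members within 100 kb of a listed p53 target. The members, the rule and the lists (p53 targets, named noncoding RNAs and markers of 8 cell types) were chosen with earlier results of these data known. Single values, the Ccdc6 neighbour at 16 h, the target beside that of Slc13a4 and the targets along the plotted intervals were added to describe the named ones.

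Alternatives were normexp background correction (offset 50), quantile normalization, a percentile over targets above background on all arrays, the deposited table, no filter and a stricter filter, one target per name, slide, replicate number or Ddx3y in the model, fits within a slide, groups by the genotype field, and each array left out in turn. Leaving out the 4 arrays whose genotype fields differ was extended to single named targets after seeing the data.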

Additional observations from a re-analysis of the deposited data

Results flagged for a closer look

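The doxorubicin responses of 260 interval targets differed between wild type and Top2b-deleted cardiomyocytes at 16 h by the interaction term of limma (adjusted p under 0.05). The values below are the Top2b-deleted response minus the wild-type response on the log2 scale. Toward a higher response in Top2b-deleted, both targets named in the interval near Actc1 differed, by 2.60 and 2.59. The interval chr6:31267612-31293337 (F), whose nearest gene target is that of Mkln1, differed by 1.80 (adjusted p = 0.028), and its doxorubicin call in wild type was lost without the 4 arrays whose genotype fields differ. The interval near Homer1 differed by 1.80, and chr2:25782483-25783075 (R), near the potassium channel gene Kcnt1, by 1.74 (adjusted p = 0.048). The differences near Mkln1 and near Kcnt1 lost their calls with slide as a block, without those 4 arrays, and without any single Top2b-deleted PBS array.

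Toward a lower response in Top2b-deleted, the interval near G3bp2 differed by -3.99 and the interval around Kifc1 by -3.89. The interval around AI607873 differed by -2.88 (adjusted p = 0.018), and 2 targets near Zbtb38 by -2.84 and -2.77. The calls of AI607873's interval and of the second target near Zbtb38 were lost with slide as a block. The Top2b-deleted doxorubicin arrays were all on slide 2 and the wild-type arrays all on slide 1.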

How the results depend on the processing

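Grouping by the genotype field aside, no named target changed direction under the alternatives run for it. The balance of higher and lower calls did turn under some scalings, as given with the counts in the results. Directions of the named targets were not compared under grouping by the genotype field. The deposited table moved the median of all targets by 0.12 for the difference of responses at 16 h. Grouping by the genotype field left 0 calls in all 4 comparisons at 16 h, where the main counts were 681, 1, 379 and 260. For doxorubicin in wild type at 16 h the count was 288 with one target per name and 451 with the stricter filter. In Top2b-deleted at 16 h it was 2 with slide as a block, and 0 with one target per name, with the stricter filter and within slide 2. For genotype in PBS at 16 h it was 243 with Ddx3y as a covariate, 237 without a filter, 207 with one target per name, 200 with slide as a block, 129 within slide 1 and 234 without the 4 arrays whose genotype fields differ. For the difference of responses at 16 h it was 419 with Ddx3y, 110 without a filter, 54 with slide as a block and 140 without those 4 arrays. With one target per name, 56 were higher and 51 lower, against 140 and 120. For doxorubicin in wild type at 72 h it was 5 with Ddx3y, 132 from the deposited table, 3 without a filter, 28 with one target per name, 356 with slide as a block and 122 within slide 1. In Top2b-deleted at 72 h it was 1 with Ddx3y and 1 within slide 1. For genotype in PBS at 72 h it was 52 without a filter, 41 with one target per name, 175 with slide as a block, 40 with the stricter filter and 149 within slide 1. One target per name and the stricter filter test fewer targets. For the other settings the cause was not tested. Slide 2 of 72 h held 1 array per group and could not be fitted.

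With each array left out in turn, the counts ranged from 497 to 944, 1 to 2, 167 to 611 and 132 to 645 for the 4 comparisons at 16 h in the order above. At 72 h they ranged from 0 to 192 for doxorubicin in wild type, 0 to 1 in Top2b-deleted, 37 to 116 for genotype and 0 to 1 for the difference of responses. Replicate numbers are shared between groups, and same-numbered arrays deviated together with r from -0.168 to 0.303 at 16 h and from 0.036 to 0.786 at 72 h, where 12 of 12 arrays were closest to their own number, a hint from the data and not the design. The replicate block gave 406 calls for doxorubicin in wild type and 194 for genotype in PBS at 72 h, and 640 for doxorubicin in wild type at 16 h. It left the calls of all 93 named targets in place.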

Other observations

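Among the 4847 members, 8 had levels on the 24 arrays that fell into separate bands, with a gap of at least 3 on the log2 scale. They were picked after their values were seen. For 5 of them 1 array was low, and it was the same array each time, wild-type doxorubicin replicate 4 at 72 h. The target whose nearest named gene is Rassf8 was at -5.69 on that array and between 0.27 and 2.07 on the other 23. The targets nearest to Zfp944, Rab2b, Cd9 and Csda had gaps of 5.11, 4.12, 3.20 and 3.06. The other 3 were targets near Slc13a4 (15 arrays high, 9 low), near Hsf2bp (9 high, all of them wild-type, and 15 low) and near Bnip3l (3 high, 21 low). That near Hsf2bp is not the target described in the results. It belongs to the overlapping interval chr17:32035750-32056000 (R).

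Of 109 members on the X chromosome tested at 16 h, 8 (7.34%) were called for doxorubicin in wild type and 3 (2.75%) for genotype in PBS, next to 17.4% and 9.70% of all members. Of 132 tested at 72 h, 3 (2.27%) were called for doxorubicin in wild type, next to 1.38% of all members, and 0 for genotype in PBS, next to 1.87%.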
